A study of Mus musculus with 18 samples.

Results

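The genes described here are the replication-dependent histone genes of the mouse, taken as the protein-coding genes whose older symbol starts with Hist1h, Hist2h, Hist3h or Hist4h. There were 67 of them among 33440 genes in the annotated files, and none of the measured values was used to choose them. They were 6 genes for the linker histone H1, 18 for H2A, 18 for H2B, 12 for H3 and 13 for H4. The Hist1 cluster on chromosome 13 held 54 of them, the Hist2 cluster on chromosome 3 held 10, the Hist3 cluster on chromosome 11 held 2, and Hist4h4 lay alone on chromosome 6. Histones H2A, H2B, H3 and H4 form the core around which DNA is wound, and H1 binds the DNA between cores. Most of these genes are known for mRNAs that carry no poly(A) tail and end instead at a short stem-loop, which is bound by SLBP, and for expression that peaks while DNA is copied. Some members are also known to give polyadenylated mRNAs in cells that no longer divide, and separate genes, called replication-independent variants, supply histones outside S phase.

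RNA was measured in 18 libraries from C57BL/6 mice, all depleted of ribosomal RNA and not selected for poly(A), so that mRNAs with and without a tail could be read. Adipocytes differentiated from the stromal vascular fraction (SVF) of inguinal fat of IRF3-2D mice, which carry a constitutively active Irf3 allele that is silent until Cre acts, were transduced at day 6 with AAV-Cre (FI3OE, 3 libraries) or AAV-GFP (WT, 3 libraries) and harvested at day 8. Both SVF-derived groups thus carried the IRF3-2D allele and a viral vector, and FI3OE differed from WT in Cre as well as in the active IRF3. For the other libraries, RNA bound to a tagged ribosomal protein of adipocytes was pulled down from epididymal fat (eWAT) by translating ribosome affinity purification (TRAP). The mice were labelled adipocyte IRF3KO (FI3KO, 6 libraries) or WT (6 libraries), and all had been kept on high-fat diet (HFD) for 8 weeks at thermoneutrality. In the study's methods the knockout rests on Adipoq-Cre and floxed Irf3, mice entered the diet at 8 weeks of age, and mice of 4 to 6 weeks gave the SVF cells. The labels call every library a biological replicate and name neither animals nor cultures.

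The stem-loop was searched as the letters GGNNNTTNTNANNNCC on the transcript's strand, in the transcript model with the most reads of each gene, in GRCm38. For Hist1h2be this was a non-coding model. In 22 of the 67 genes the model ended within 60 bases of these letters and in 23 it ran further. The letters were not in 9 further models, among them that of Hist1h2be, and 13 models covered the coding part only. The sequences of 8 genes on which the results below turn are shown, with the 16 bases of the stem-loop in capitals, 5 bases to each side in lower case, and the coordinates of the capitals. The form of the first 4 was the most frequent, in 25 genes of classes H1, H2A, H2B and H3, and the form shared by Hist1h4h and Hist1h4d was found in 7 genes, all of class H4.
Hist1h1c (H1, chr13:23739512-23739527, + strand): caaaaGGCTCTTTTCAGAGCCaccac
Hist2h2aa1 (H2A, chr3:96246032-96246047, + strand): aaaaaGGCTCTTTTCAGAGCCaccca
Hist2h3c2 (H3, chr3:96238485-96238500, - strand): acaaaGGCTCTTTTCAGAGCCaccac
Hist1h2bj (H2B, chr13:22043638-22043653, + strand): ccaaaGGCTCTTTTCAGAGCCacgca
Hist1h4h (H4, chr13:23531458-23531473, + strand): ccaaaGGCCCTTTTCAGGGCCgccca
Hist1h4d (H4, chr13:23581950-23581965, + strand): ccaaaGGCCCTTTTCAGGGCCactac
Hist1h4b (H4, chr13:23757366-23757381, + strand): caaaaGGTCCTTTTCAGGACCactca
Hist1h4a (H4, chr13:23760800-23760815, - strand): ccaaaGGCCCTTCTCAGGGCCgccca
Hist1h4a was the only gene with its form. Hist1h4b shared its form with Hist1h4j, and all 4 of these H4 genes are described below for FI3KO. Behind the stem-loop, the models of Hist1h1c and Hist1h4d ran on for 840 and 770 bases, while those of Hist1h2bj, Hist2h2aa1 and Hist1h4h ended 23, 35 and 46 bases after it.

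Promoters, from 250 bases before to 50 after the start, were available from RefSeq (GRCm38.p6) for 62 of the 67 genes. Letters were searched on both strands. The octamer ATTTGCAT, which binds OCT1, was present in 7 of 18 H2A and 6 of 16 H2B promoters and in none of H1, H3 or H4, against 1.75% of all 27025 promoters. CCAAT, the box bound by NF-Y, was present in every available promoter of H1, H2A, H2B and H3 genes and in 3 of 12 of H4 genes, against 37.92% of all promoters. TATAAA was found in 56.5% of the histone promoters and in 14.16% of all. GAAANNGAAA, the core letters of an interferon response element, which IRF family members bind, were found in 1 histone promoter, that of Hist1h3h, and in 3.49% of all promoters. Such letters are a description of the window and not proof of a binding site. The promoters of 3 genes that passed the tests described below are printed with the CCAAT and TATA boxes, in either orientation, in capitals.
Hist1h1c (H1, chr13:23738557-23738856, + strand): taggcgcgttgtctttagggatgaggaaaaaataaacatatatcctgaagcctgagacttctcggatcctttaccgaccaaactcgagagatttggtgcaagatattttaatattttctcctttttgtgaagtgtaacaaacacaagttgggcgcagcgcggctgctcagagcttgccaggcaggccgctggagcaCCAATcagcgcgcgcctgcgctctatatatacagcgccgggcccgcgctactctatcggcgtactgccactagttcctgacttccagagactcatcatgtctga
Hist1h2bj (H2B, chr13:22042948-22043247, + strand): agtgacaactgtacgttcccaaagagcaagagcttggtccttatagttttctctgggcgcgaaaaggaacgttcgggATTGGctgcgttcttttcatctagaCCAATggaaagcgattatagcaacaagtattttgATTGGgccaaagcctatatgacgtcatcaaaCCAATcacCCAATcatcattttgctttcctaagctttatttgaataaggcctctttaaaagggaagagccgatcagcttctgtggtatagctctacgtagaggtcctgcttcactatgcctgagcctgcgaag
Hist1h4h (H4, chr13:23530794-23531093, + strand): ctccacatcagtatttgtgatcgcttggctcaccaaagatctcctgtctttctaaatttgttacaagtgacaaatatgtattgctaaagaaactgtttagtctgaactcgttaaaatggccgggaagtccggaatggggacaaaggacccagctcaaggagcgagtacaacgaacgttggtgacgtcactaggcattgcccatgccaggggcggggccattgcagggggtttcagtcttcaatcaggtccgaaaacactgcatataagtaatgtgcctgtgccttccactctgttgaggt
The promoter of Hist1h2bj held 5 copies of CCAAT in either orientation and that of Hist1h1c held 1. That of Hist1h4h held none, and TATAAA was in none of these 3.

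Libraries held between 21541334 and 40490283 reads, of which 8438 to 19880 fell on histone genes. At least 10 reads in every library of the group were reached by 50 of the 67 genes in WT SVF-derived adipocytes and 53 in FI3OE, against 28 in WT TRAP and 23 in FI3KO TRAP. No read fell on 4, 2, 7 and 6 genes, in the same order of groups. Several genes are near-identical copies between which Salmon divides reads, so 19 genes in 7 copy groups were also summed, where each gene shared with another of its group at least 80% of the 31-base words of the one with fewer words. The need for this was plain in Hist2h2aa1 and Hist2h2aa2, since Hist2h2aa2 was given reads in replicates 1 and 2 of FI3KO and of FI3OE and in no other library. The libraries did not keep the strand, so reads of genes on opposite strands cannot be told apart, as in Hist2h2aa1 and its antisense neighbour Gm20633 or Hist1h4b and 4930558J22Rik. Values of near-identical copies are given below as sums, named with a stroke, in 55 genes or copy groups. Irf3 was at 91.4 to 102 CPM (counts scaled by library size and TMM, as all CPM here) in FI3OE and at 56.8 to 57.9 in WT, and at 12.5 to 19.97 in FI3KO TRAP and 16.4 to 22.8 in WT TRAP, so the FI3KO and WT ranges overlapped (log2 fold change -0.35, adjusted p = 0.0198 in edgeR). These values cover the whole Irf3 gene, and the floxed part was not read separately, so they check the FI3KO label only in part. Among TRAP libraries, replicates 1 and 2 stood apart from replicates 3 to 6 in both genotypes, and the leading histone differences of FI3KO from WT are given for both sets. The 10 adipocyte markers summed to 27171 to 31918 CPM in TRAP and to 7168 to 7540 in SVF-derived cells, where 11 macrophage markers summed to 2109 to 2353. The 7 preadipocyte or fibroblast markers summed to 2068 to 2167 CPM in FI3OE and to 1098.5 to 1174 in WT SVF-derived adipocytes, without overlap. The part of such cells in the histone values of FI3OE was not tested.

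In the control libraries the histone mRNA of adipocytes was dominated by few genes, and more so in the animal than in culture. Levels between genes are compared here per length, in TPM, which divides reads by transcript length. The H2A genes Hist2h2aa1/Hist2h2aa2 led both kinds of library, with 1309 ± 295 TPM in WT TRAP (SD, n = 6) and 499 ± 21 TPM in WT SVF-derived adipocytes (SD, n = 3). They alone made up 51.8% of the histone TPM of 2528 in WT TRAP and 23.3% of that of 2145 in WT SVF-derived adipocytes. The 10 leading genes made up 93.3% and 69.1%.

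Next in WT TRAP were the H2B genes Hist1h2bq/Hist1h2br, with 354 ± 51 TPM, and Hist1h2bc, with 267 ± 26 TPM, followed by the H1 gene Hist1h1c with 143 ± 4.4 TPM and the H4 gene Hist1h4h with 101 ± 33 TPM. The lowest of 6 libraries for Hist1h2bq/Hist1h2br, 299.0 TPM, lay above the highest for Hist1h2bc, 291.6 TPM, while the libraries of Hist1h1c (138 to 149.98 TPM) overlapped those of Hist1h4h (65.3 to 149.7 TPM). In WT SVF-derived adipocytes Hist1h2bq/Hist1h2br stood at 256 ± 15 TPM, Hist1h4m/Hist1h4n at 245 ± 27, Hist1h1c at 169 ± 2.2, Hist1h4h at 117 ± 6.6 and Hist1h2bc at 74.4 ± 5.8. Hist1h2bq/Hist1h2br and Hist1h4m/Hist1h4n thus differed by less than 1 SD. A mean of at least 10 TPM was reached by 13 of the 55 genes or copy groups in WT TRAP and by 30 in WT SVF-derived adipocytes. By class, H2A made up 52.4% of histone TPM in WT TRAP and 30.8% in WT SVF-derived adipocytes, and H4 made up 7.16% and 26.2%.

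**Figure D1:**
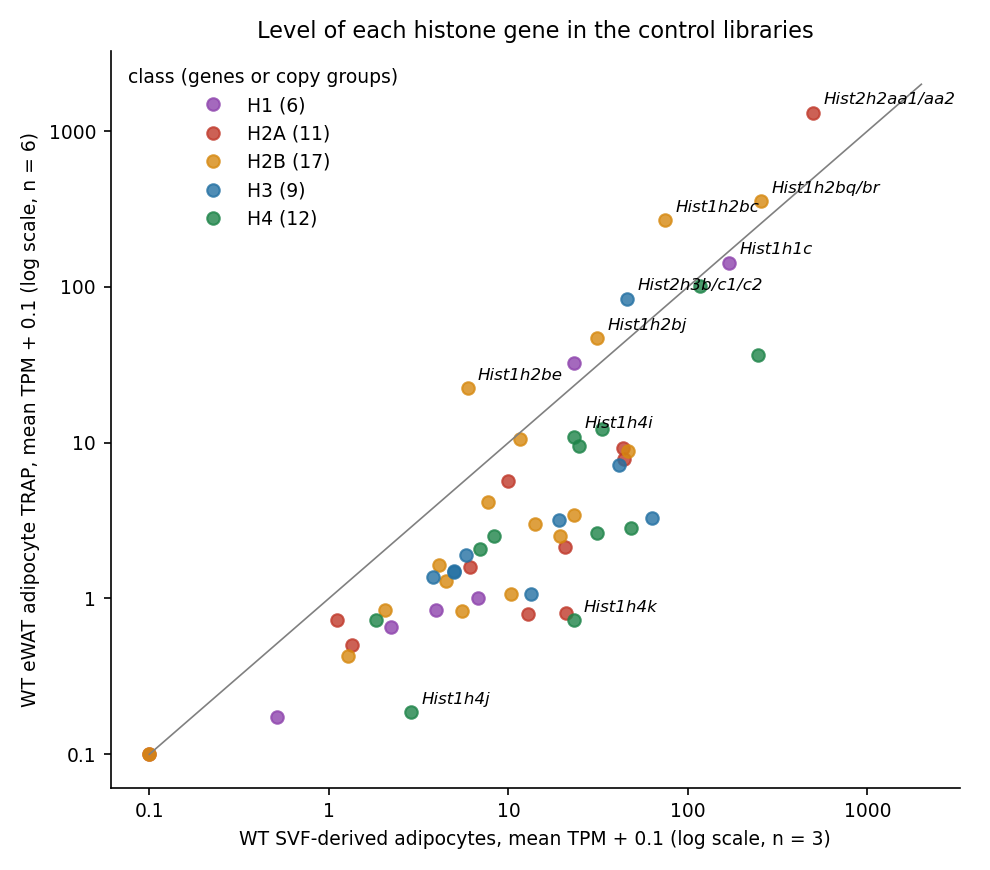
Mean TPM of each histone gene or copy group in WT SVF-derived adipocytes (x axis, n = 3) and WT eWAT TRAP (y axis, n = 6), both on log scales, coloured by class, with the line of equal level. Of 55 points, 46 lie below the line and 7 above it, and those above include Hist2h2aa1/aa2, Hist1h2bq/br, Hist1h2bc and Hist2h3b/c1/c2.

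Against WT SVF-derived adipocytes, most histone mRNAs were lower and a few abundant ones higher in WT TRAP. Of 55 histone genes tested, 9 were higher and 38 lower at an adjusted p of at most 0.05 (edgeR quasi-likelihood test, Benjamini-Hochberg over all genes), and 38 of these also differed by 1 or more on the log2 scale. Calls were very common in this comparison, at 80.2% of all 16454 genes, with 38.1% higher and 42.1% lower and 46.9% past the fold as well, against 85.5% of the histone genes. With copies summed, 8 of 50 were higher and 36 lower, and the median log2 difference was -1.45, against -0.07 over all genes without summing. Many of these genes passed the filter only through the SVF-derived libraries. With at least 10 reads in every library, 8 of 28 were higher and 15 lower, with a median of -0.73, and 77.5% of all genes were called. The 3 RNAs listed as lacking a poly(A) tail or kept in the nucleus summed to 557 to 3381 CPM in WT TRAP. In WT SVF-derived adipocytes they summed to 12075 to 13385 CPM. Whether mRNAs without a tail were captured alike in both was not tested. Depot, culture, isolation and experiment differ together here and cannot be told apart. In these bulk samples, as in the others, fewer cells of a type and less RNA per cell cannot be told apart either.

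Hist1h2bc, an H2B gene, was read at 143 to 172 CPM in WT TRAP (median 159) and at 29.9, 32.3 and 35.6 CPM in WT SVF-derived adipocytes. The groups did not overlap, with a log2 difference of 2.28 (SE 0.088, adjusted p = 3.39e-09 in edgeR). The H2B gene Hist1h2be lay at 26.3 to 31.8 CPM (median 29.1) against 5.35, 5.87 and 5.88 CPM, with a log2 difference of 2.34 (SE 0.085, adjusted p = 2.17e-09 in edgeR). Most of its reads in WT TRAP, 76.2% to 87.1% per library, were assigned to a non-coding model of 2099 bases that overlaps Hist1h1e on the same strand, against 52.6% to 59.3% in WT SVF-derived adipocytes, so its value is uncertain. The H1 gene Hist1h1e itself was at 23.3 to 30.5 CPM (median 28.4) against 16.3, 14.6 and 15.0 CPM, a log2 difference of 0.88 (SE 0.093, adjusted p = 7.55e-06 in edgeR).

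Hist2h2aa1/Hist2h2aa2 were at 158 and 165 CPM in replicates 1 and 2 of WT TRAP and at 107 to 120 CPM in replicates 3 to 6. All of these lay above the values of 37.4, 36.6 and 35.7 CPM in WT SVF-derived adipocytes, and the log2 difference was 1.81 (SE 0.17, adjusted p = 2.38e-06 in edgeR). The H3 genes Hist2h3b/Hist2h3c1/Hist2h3c2 were at 17.6 to 30.3 CPM (median 27.1) against 6.63, 6.17 and 7.45 CPM. They were higher by 1.88 on the log2 scale (SE 0.20, adjusted p = 7.27e-06 in edgeR), whereas without summing Hist2h3c2 alone gave 2.34 and Hist2h3b alone -5.80.

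Of 13 H4 genes 11 were lower in WT TRAP and none was higher, and of 11 H3 genes 9 were lower and 1 was higher. Of all genes 42.1% were lower and 38.1% higher. Several of these H3 and H4 genes, such as Hist1h4j and Hist1h4k, passed the filter on low counts only through the SVF-derived libraries. A lower call was then the only one open to them, so the class counts lend no support to a difference between classes. Hist1h4m/Hist1h4n were at 0.509 to 6.02 CPM in WT TRAP against 17.9, 15.6 and 19.0 CPM, with no overlap and a log2 difference of -2.31 (SE 0.52, adjusted p = 0.0018 in edgeR). Hist1h4b was at 0 to 0.385 CPM against 3.30, 3.61 and 3.33 CPM, and Hist1h3h/Hist1h3i were at 0 to 0.642 CPM against 5.55, 4.25 and 3.61 CPM. Both were called lower, but they passed the filter on low counts only through the SVF-derived libraries, where they were high, so these calls lend no support. Their p-values and fitted folds are not given because WT TRAP libraries were at or near 0. Hist1h4d, at 5.65 to 10.8 CPM against 16.3, 15.2 and 15.3 CPM, was lower by less, with a log2 difference of -1.05 (SE 0.22, adjusted p = 0.00135 in edgeR). Hist1h4h did not pass the test, with a log2 difference of 0.20 (adjusted p = 0.445 in edgeR). Its WT TRAP replicates 1 and 2, with 12.7 and 14.2 CPM, lay above the 8.05 to 8.89 CPM of WT SVF-derived adipocytes, while the other 4, with 6.67 to 9.20 CPM, lay below, within and above that range. Hist1h1c lay close to the threshold, at 69.2 to 78.4 CPM against 67.7, 66.7 and 68.0 CPM (log2 difference 0.12, adjusted p = 0.0419 in edgeR), and with only genes of at least 10 reads in every library its sign turned, to -0.05.

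With active IRF3 in SVF-derived adipocytes, single mRNAs of H1, H2A, H2B and H3 rose, mostly by less than 1 on the log2 scale, and no H4 mRNA was called higher. The classes were not tested against each other. Of 56 histone genes tested, 9 rose and 2 fell at an adjusted p of at most 0.05 (edgeR quasi-likelihood test, Benjamini-Hochberg), and 1 of them, Hist1h1a, reached 1 on the log2 scale. Among all 16105 genes tested, 37.0% were called, 20.2% higher and 16.8% lower, and 3.62% also passed the fold, so the histone share of 19.6% lay below the background. The median log2 fold change of the histone genes was 0.19. With all 18 libraries in 1 fit, Hist1h1c, Hist1h2bc and Hist1h2be kept their calls and the other 8 genes lost theirs, while the share called of all genes was 9.09%. With copies summed, 10 of 50 rose and 2 fell, by class 3 of 5 H1 genes, 2 of 9 H2A, 3 of 15 H2B with 1 fall, 2 of 9 H3, and none of 12 H4 with 1 fall. Summed by class, H1 reads were at 141 to 151 CPM in FI3OE against 112 to 116 in WT and H2B reads at 119 to 129 against 94.7 to 106, with no overlap in either, while H4 reads were at 78.3 to 87.6 against 80.8 to 88.4 and overlapped.

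**Figure D2:**
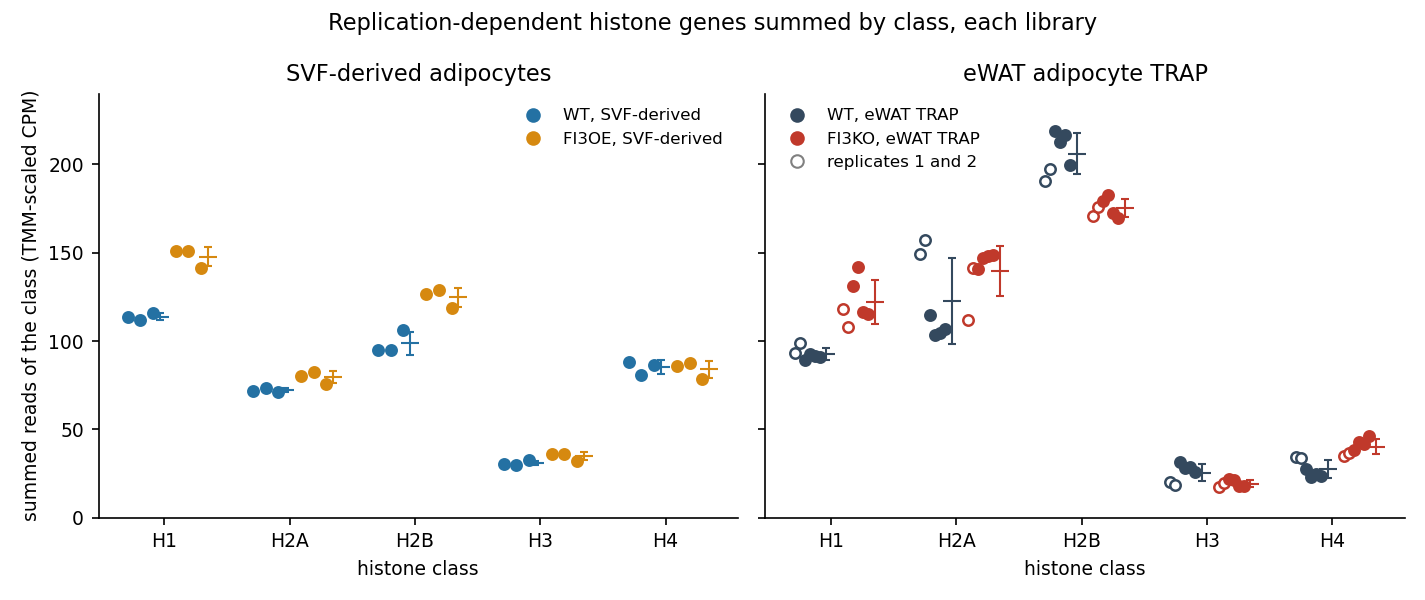
Reads of all genes of each histone class summed in every library (y axis, TMM-scaled CPM), with the mean and SD beside the points, for SVF-derived adipocytes (left) and eWAT TRAP (right), where open circles are replicates 1 and 2. FI3OE lies above WT for H1, H2B and H2A (75.8 to 82.4 against 71.3 to 73.3) and not for H4, and FI3KO lies above WT for H1 (108 to 142 against 89.0 to 99.0) and H4 (34.9 to 46.1 against 23.1 to 34.1) and below it for H2B (170 to 183 against 190 to 219).

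Hist1h1c, the H1 gene of the highest level per length in these cells, was at 115, 114 and 109 CPM in FI3OE and 83.1, 82.1 and 83.8 CPM in WT. It rose by 0.44 on the log2 scale (SE 0.037, adjusted p = 3.00e-06 in edgeR with copies summed, as for the genes that follow), and the groups did not overlap. Hist1h1d, for another H1, was at 14.3, 13.7 and 13.9 CPM against 8.59, 9.72 and 11.4 CPM, and rose by 0.49 (SE 0.10, adjusted p = 0.00259 in edgeR). Hist1h1a was low, at 1.90, 1.50 and 1.42 CPM against 0.619, 0.556 and 1.06 CPM, with a log2 fold change of 1.08 (SE 0.29, adjusted p = 0.0126 in edgeR) that lost its call without WT replicate 1 or 2. Hist1h1e gave -0.08 on the log2 scale and did not pass the test (adjusted p = 0.467 in edgeR).

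Among H2B genes, Hist1h2bc was at 54.6, 56.0 and 56.8 CPM in FI3OE and at 36.6, 39.8 and 43.8 CPM in WT, a rise of 0.48 on the log2 scale (SE 0.059, adjusted p = 6.46e-05 in edgeR). Hist1h2be was at 11.5, 10.7 and 9.71 CPM against 6.56, 7.22 and 7.25 CPM and rose by 0.60 (SE 0.10, adjusted p = 6.35e-04 in edgeR). Hist1h2bq/Hist1h2br were at 33.0, 33.5 and 28.9 CPM against 24.9, 23.7 and 26.4 CPM and rose by 0.34 (SE 0.068, adjusted p = 0.00214 in edgeR). In all 3 cases every FI3OE library lay above every WT library. Hist2h2be moved the other way, at 3.47, 2.96 and 3.52 CPM against 5.41, 5.23 and 5.00 CPM, a fall of 0.65 on the log2 scale (SE 0.13, adjusted p = 0.00197 in edgeR), again without overlap.

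Of the H2A genes, Hist1h2ac was at 2.83, 2.17 and 2.46 CPM in FI3OE and at 1.53, 1.44 and 1.10 CPM in WT, a rise of 0.87 on the log2 scale (SE 0.20, adjusted p = 0.00587 in edgeR). Hist2h2aa1/Hist2h2aa2, the most abundant per length, were at 49.6, 52.4 and 48.9 CPM against 45.8, 45.0 and 43.9 CPM and rose by 0.16 (SE 0.044, adjusted p = 0.0129 in edgeR), or by 0.10 (adjusted p = 0.0496) with the overlapping genes Gm20632, Gm20633 and Gm20634 summed too. Hist2h2aa1 taken alone was at 16.2, 24.4 and 48.9 CPM in FI3OE and gave -0.55 (adjusted p = 0.142 in edgeR), since part of the reads of the first and second FI3OE libraries had been assigned to Hist2h2aa2. The direction of this gene therefore turned on the summing of its copies.

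The H3 genes Hist2h3b/Hist2h3c1/Hist2h3c2 were at 10.4, 11.1 and 10.1 CPM in FI3OE against 8.13, 7.59 and 9.18 CPM in WT and rose by 0.34 on the log2 scale (SE 0.099, adjusted p = 0.0192 in edgeR). Hist1h3c, at 1.52, 2.02 and 0.900 CPM against 0.784, 0.694 and 0.866 CPM, passed narrowly (log2 fold change 0.89, SE 0.32, adjusted p = 0.0478 in edgeR) and lost its call in DESeq2 and without any single library other than FI3OE replicate 3. Of the H4 genes, Hist1h4b was at 3.30, 3.29 and 3.16 CPM against 4.05, 4.44 and 4.10 CPM, a log2 fold change of -0.37 (SE 0.13, adjusted p = 0.0425 in edgeR) whose call was lost whichever library was left out. The more abundant Hist1h4d, at 20.2, 21.4 and 18.4 CPM against 19.9, 18.7 and 18.9 CPM, and Hist1h4m/Hist1h4n gave 0.06 and -0.03 and did not pass the test. Hist1h4j was at 1.18, 1.57 and 1.15 CPM against 0.826, 0.880 and 0.906 CPM, without overlap, and gave 0.57 (adjusted p = 0.0943 in edgeR) without a call.

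**Figure D3:**
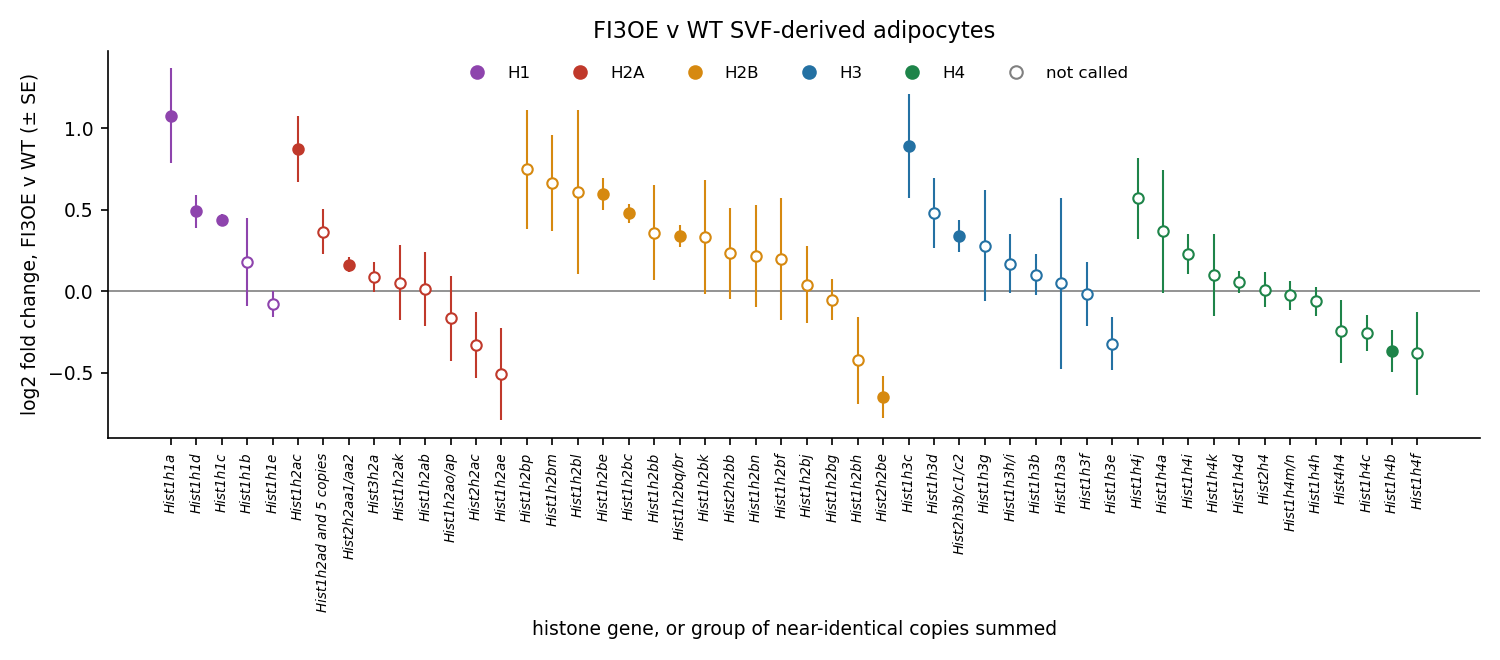
Log2 fold change of each tested histone gene or copy group in FI3OE against WT SVF-derived adipocytes (y axis, with SE from the edgeR fit, n = 3 libraries in each group), ordered by class and size. Filled points passed the test, with 10 above 0 and 2 below, and no H4 gene is filled above 0.

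The calls in FI3OE were then set beside the model of the 3' end, counting each gene by itself. Of all genes 20.2% were called higher and 16.8% lower. Of 21 tested genes whose model ended at the stem-loop, none was called higher and 1 fell, but Hist2h2aa1, which is among them, rose once its copy was summed with it. Of 20 whose model ran past the stem-loop 4 rose, of 6 with no stem-loop 3 rose and 1 fell, and of 9 with a coding model only 2 rose. Hist1h2be, among the 3 that rose with no stem-loop, was placed there by a non-coding model. The medians were 0.05, 0.07, 0.48 and 0.23 on the log2 scale. These are counts over few genes and were not tested.

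In TRAP from eWAT, FI3KO and WT differed in single genes of H1, H2B, H3 and H4, with 1 H1 and 5 H4 genes higher and 2 H2B genes lower in FI3KO. Of 32 histone genes tested, 7 rose and 3 fell in FI3KO (edgeR quasi-likelihood test, Benjamini-Hochberg), and 3 also reached 1 on the log2 scale in either direction. Of all 13624 genes tested, 37.4% were called, 19.1% higher and 18.3% lower, and 6.61% also passed the fold, against 31.2% of the histone genes called. H4 accounted for 5 of the 7 rises, out of 10 H4 genes tested. Of these 5, Hist1h4a and Hist1h4b passed the filter on low counts mainly through FI3KO, where they were higher, so the tally lends no support to a rise of the class. With at least 10 reads in every library, 5 of 22 histone genes rose and 5 fell. Of all 12097 genes tested then, 2406 rose and 2429 fell. With all 18 libraries in 1 fit, 18 of 57 histone genes were called, 9 higher and 9 lower, against 35.6% of all genes. With copies summed, 7 of 31 rose and 4 fell. The median log2 fold change of histone genes was 0.09, against 0.02 over all genes.

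Hist1h1c was at 92.9, 78.1, 98.0, 111, 88.6 and 90.5 CPM in FI3KO replicates 1 to 6 and at 63.7, 69.5, 61.0, 65.3, 67.6 and 63.6 CPM in WT. Every FI3KO library lay above every WT library, and the gene rose by 0.52 on the log2 scale (SE 0.073, adjusted p = 3.23e-04 in edgeR with copies summed, as for the genes that follow). Replicates 1 and 2 gave an estimate of 0.37, and replicates 3 to 6 gave 0.59.

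Of the H2B genes, Hist1h2bj and Hist1h2bc fell. Hist1h2bj was at 1.55, 1.60, 1.53, 1.55, 2.27 and 1.69 CPM in FI3KO and at 3.24, 3.08, 4.55, 4.66, 4.06 and 4.63 CPM in WT. The groups did not overlap in either set of replicates, and the gene fell by 1.24 on the log2 scale (SE 0.16, adjusted p = 1.76e-04 in edgeR), and the set of replicates 1 and 2 gave -0.995 where the other set gave -1.33. Hist1h2bc was at 130, 118, 116, 122, 109 and 109 CPM against 126, 129, 144, 150, 154 and 137 CPM, a fall of 0.25 (SE 0.064, adjusted p = 0.00846 in edgeR). The highest FI3KO library, replicate 1, lay above the lowest WT libraries, and the estimate in replicates 1 and 2 was -0.03. Hist2h2be, another H2B gene, gave 0.51 without a call (adjusted p = 0.0576 in edgeR), and in replicates 3 to 6 alone it was called higher, at 0.67 (adjusted p = 0.0029 in edgeR).

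Among the H4 genes, Hist1h4h was at 12.2, 13.3, 12.0, 16.4, 16.9 and 19.9 CPM in FI3KO and at 11.2, 12.6, 7.75, 6.43, 8.23 and 5.87 CPM in WT, and rose by 0.80 on the log2 scale (SE 0.19, adjusted p = 0.00661 in edgeR). Hist1h4d was at 9.23, 10.2, 11.3, 12.4, 11.2 and 12.2 CPM against 9.53, 9.45, 5.49, 5.11, 5.36 and 4.98 CPM and rose by 0.74 (SE 0.18, adjusted p = 0.00694 in edgeR). The groups overlapped through WT replicate 2 in Hist1h4h and through WT replicates 1 and 2 in Hist1h4d, while WT replicates 3 to 6 lay below every FI3KO library in both genes. By set, Hist1h4h gave 0.10 for the first pair of replicates and 1.21 for the other 4.

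Hist1h4a was at 0.671, 1.30, 2.26, 1.33, 1.37 and 1.62 CPM in FI3KO and at 0.201, 0.372, 0.440, 0.286, 0.0766 and 0.0639 CPM in WT, from 2 to 62 reads per library. No libraries of the groups overlapped, and the gene rose by 2.52 on the log2 scale (SE 0.42, adjusted p = 7.56e-04 in edgeR), with 1.76 and 2.85 for the sets in the same order. These folds rest on 2 to 15 reads in each WT library, and with at least 10 reads in every library the gene was not tested and no histone gene called higher reached 1. Hist1h4b was at low values, 0.233 to 0.923 CPM against 0 to 0.345, and passed the filter on low counts mainly through FI3KO, where it was higher. It was called higher, but for this reason the call is no support by itself, and neither p-value nor fitted fold is given. The call was lost without FI3KO replicate 5. Hist1h4b was also called in replicates 3 to 6 alone and was below the filter on low counts in replicates 1 and 2. Hist4h4, at 0.766 to 1.72 CPM against 0.528 to 1.34, gave 0.83 (SE 0.30, adjusted p = 0.0454 in edgeR), and its call held only without WT replicate 1 or 2 or FI3KO replicate 3 when single libraries were left out, with adjusted p from 0.068 to 0.10 otherwise. Its estimates by set were 0.34 and 1.28. Hist1h4m/Hist1h4n went the other way once summed, at 0.420 to 1.57 CPM against 0.451 to 5.31, a fall of 1.62 (SE 0.51, adjusted p = 0.0244 in edgeR), with -0.11 in replicates 1 and 2 and -1.88 in replicates 3 to 6.

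Of the H3 genes, Hist1h3e was at 1.09, 1.13, 1.46, 1.64, 1.80 and 1.85 CPM in FI3KO and at 1.20, 1.17, 0.939, 0.685, 0.383 and 0.638 CPM in WT and rose by 0.83 on the log2 scale (SE 0.27, adjusted p = 0.0278 in edgeR), though in replicates 1 and 2 the estimate was -0.09 and the call was lost without FI3KO replicate 4, 5 or 6 or WT replicate 4 or 6. Hist2h3b/Hist2h3c1/Hist2h3c2 were at 12.9 to 18.6 CPM against 15.6 to 26.7 and fell by 0.53 (SE 0.15, adjusted p = 0.0133 in edgeR), with -0.09 for the first set and -0.70 for replicates 3 to 6. The abundant Hist2h2aa1/Hist2h2aa2 were at 102, 131, 130, 135, 139 and 139 CPM in FI3KO and at 139, 147, 106, 94.2, 96.0 and 97.0 CPM in WT. The groups overlapped and no call was made, with a log2 fold change of 0.19 (adjusted p = 0.231 in edgeR), or -0.09 (adjusted p = 0.401) when the reads of the overlapping genes Gm20632, Gm20633 and Gm20634 were summed with them.

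**Figure D4:**
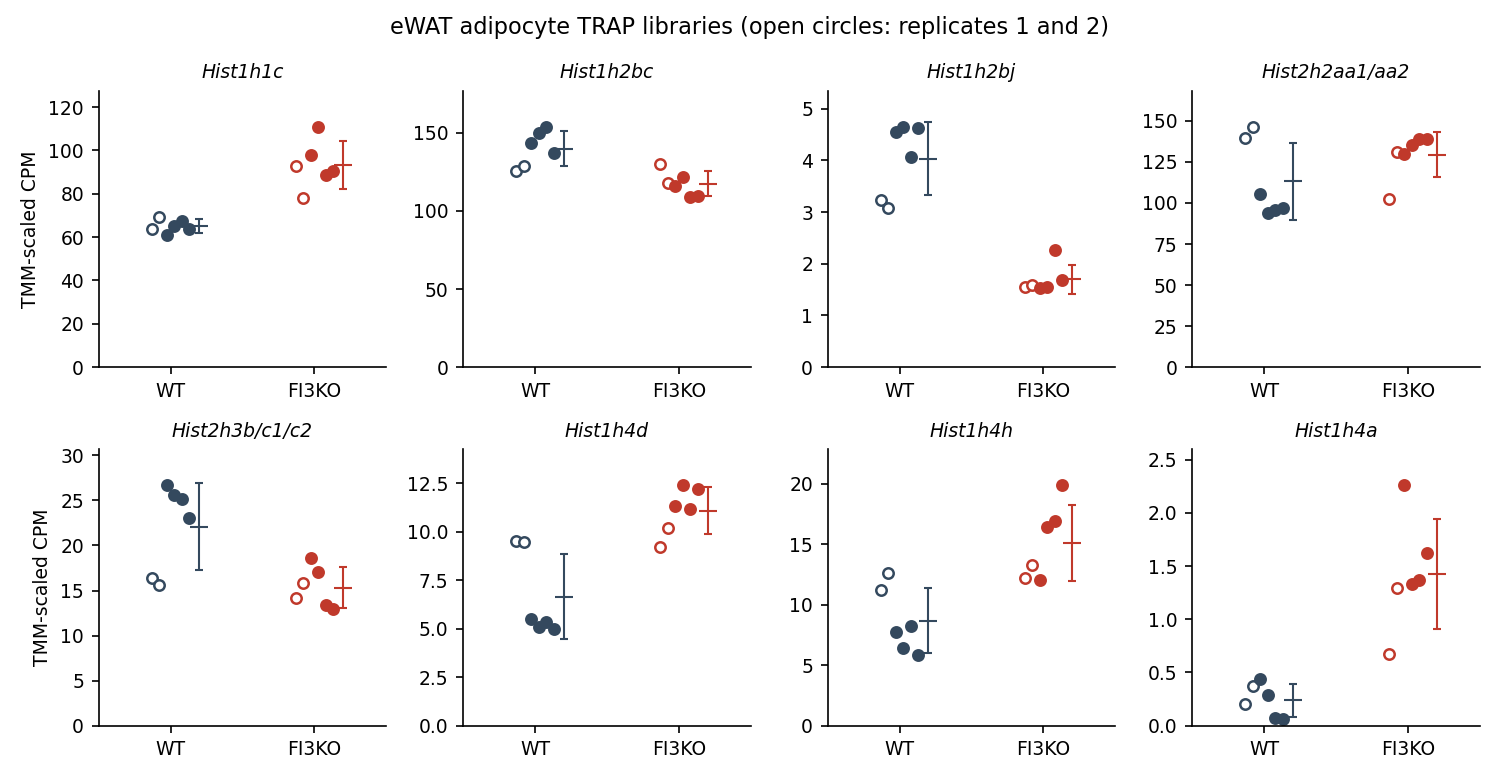
TMM-scaled CPM (y axes, each from 0) of 8 histone genes or copy groups in every WT and FI3KO eWAT TRAP library, with mean and SD (n = 6), open circles marking replicates 1 and 2. For Hist1h4d and Hist1h4h the WT replicates 1 and 2 sit above the other WT libraries, which lie below every FI3KO library, while Hist1h1c and Hist1h2bj separate the genotypes in both sets.

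The sets of TRAP replicates were then compared by the interaction of genotype with set. The labels name no such sets. The split was read from earlier results of these same libraries, so the p-values of this test are descriptive. Of 42 histone genes tested, the effect of FI3KO was higher in replicates 3 to 6 for 7 and lower for 3 (edgeR quasi-likelihood test, Benjamini-Hochberg), and 5 of these differences reached 1 on the log2 scale. Of all 14978 genes tested, 24.9% were called, 12.9% higher and 11.9% lower, and 11.0% also passed the fold, against 23.8% of the histone genes. The count of 10 fell to 3 without WT replicate 2 and to 5 without FI3KO replicate 1 or WT replicate 1, where 12.9%, 18.3% and 13.6% of all genes were called. In replicates 3 to 6 alone, 12 of 32 histone genes rose and 4 fell in FI3KO, a share of 50.0% against 50.6% of all genes. In replicates 1 and 2 alone, 1 of 33 was called against 3.56% of all genes, and with copies summed 0 of 32, with 5 at an unadjusted p under 0.05 in edgeR.

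In H4, 4 of 10 genes or copy groups were called, all with the higher effect in replicates 3 to 6, and the median difference was 0.96 on the log2 scale. Hist1h4d gave 0.04 in replicates 1 and 2 and 1.17 in replicates 3 to 6, a difference of 1.17 (adjusted p = 8.85e-05 in edgeR). The difference was 1.15 for Hist1h4h (adjusted p = 0.00712), 0.94 for Hist1h4c (adjusted p = 0.00696) and 1.44 for Hist2h4 (adjusted p = 0.0273 in edgeR, lost without FI3KO replicate 1 or WT replicate 1 or 2). Hist2h2aa1/Hist2h2aa2 gave -0.29 in replicates 1 and 2 and 0.47 in replicates 3 to 6, and the difference of 0.80 passed the test (adjusted p = 0.000881 in edgeR). With the overlapping genes Gm20632, Gm20633 and Gm20634 summed too, the difference was 0.39 (adjusted p = 0.0456 in edgeR). For Hist1h1c, Hist1h2bj and Hist1h4a, which had the same sign in both sets, no difference between sets was called.

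**Figure D5:**
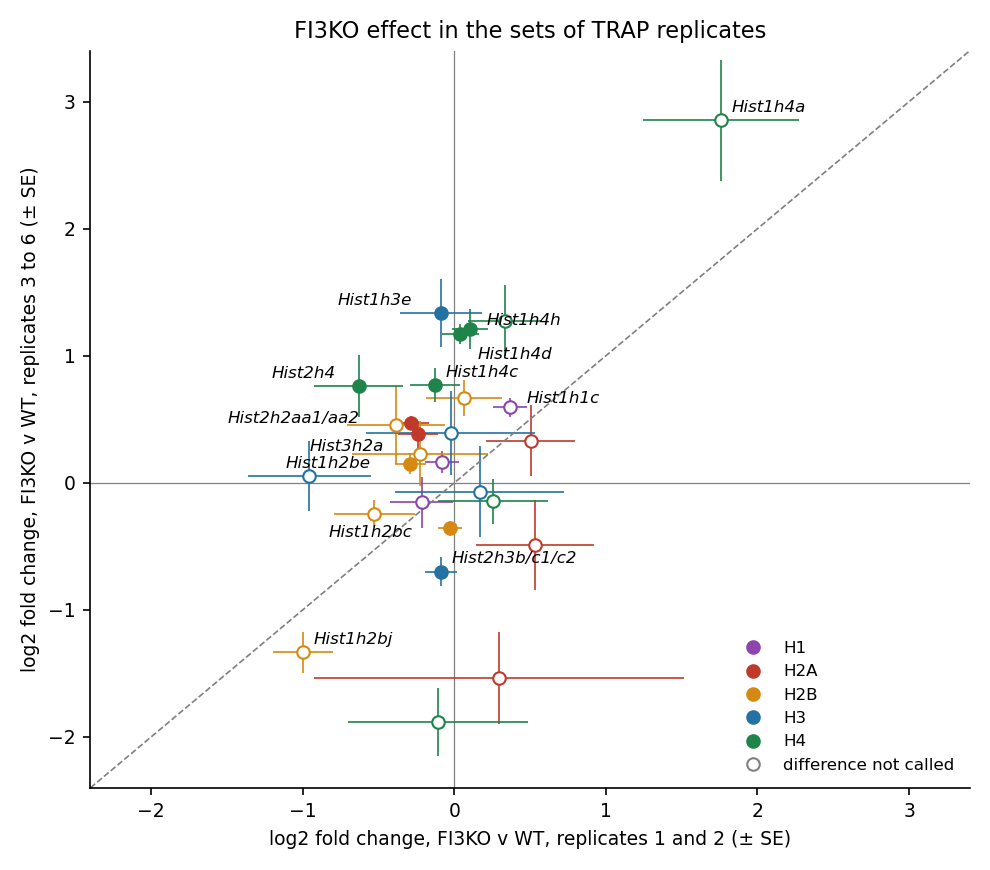
Log2 fold change of FI3KO against WT for 28 histone genes or copy groups read in every TRAP library, in replicates 1 and 2 (x axis) and in replicates 3 to 6 (y axis), with SE bars and the dashed line of equal effect. Filled points, among them Hist1h4d, Hist1h4h, Hist1h4c and Hist2h4, differed between the sets by the interaction test, and Hist1h2bj, Hist1h1c and Hist1h4a have the same sign in both.

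Markers of other cells moved with the same split. The 11 macrophage markers summed to 13.5 to 17.2 CPM in FI3KO replicates 3 to 6 and to 71.7 to 96.0 in the WT replicates 3 to 6, but to 37.0 to 46.4 and 38.9 to 39.3 in replicates 1 and 2, and the interaction was called lower for 11 of 11 of them. The 7 preadipocyte or fibroblast markers summed to 9.37 to 20.2 CPM against 42.2 to 53.3 in replicates 3 to 6 and to 34.8 to 42.8 against 24.7 to 27.3 in replicates 1 and 2. Epididymal markers summed to 1.34 and 1.397 CPM in FI3KO replicates 1 and 2 and to at most 0.0668 in the other TRAP libraries. The 3 RNAs listed as lacking a poly(A) tail or kept in the nucleus summed to 3669 to 3806 CPM in FI3KO replicates 1 and 2 and to 588 to 1228 in replicates 3 to 6. In WT they summed to 1144 to 1324 and to 492 to 3024 CPM in the same order. The part of these cells and RNAs in the histone differences was not tested.

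Genes that act on histone genes or accompany them were also examined, as lists, and their counts are to be read against the shares of all genes called, 20.2% higher and 16.8% lower in FI3OE and 19.1% higher and 18.3% lower in FI3KO. Of 11 genes for histone transcription and mRNA processing, 1 rose in FI3OE, the U7 snRNP gene Lsm10 (log2 fold change 0.23, adjusted p = 0.0311 in edgeR), and Slbp, whose product binds the stem-loop, was at 14.0 to 16.5 CPM in FI3OE and 16.1 to 17.4 in WT without a call. In FI3KO, 3 of 10 tested were called by edgeR: Cstf2 rose by 0.27, and Lsm11, also of the U7 snRNP, and Npat, which activates histone transcription, fell by 0.74 and 0.42. Of 11 replication-independent variants, H3f3a and H3f3b rose in FI3OE and H1f0, H1fx and H2afz fell. The H3.3 gene H3f3b was at 147 to 156 CPM in FI3OE against 120 to 125 in WT (log2 fold change 0.29), and at 65.8 to 89.4 in FI3KO against 46.3 to 58.4 in WT TRAP (log2 fold change 0.57, adjusted p = 2.8e-04 in edgeR).

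In FI3KO, H2afj, H2afv and H2afx also rose, by 0.30, 0.77 and 0.50, and the centromere variant Cenpa fell by 1.00. Of 17 histone chaperones, Nap1l1, Daxx, Asf1a, Asf1b and Hat1 rose in FI3OE, and Cabin1 and Ubn1 fell. Daxx, the H3.3 chaperone, rose by 0.50 in FI3OE and fell by 0.52 in FI3KO, where it was the only one of 15 called. Of 31 genes for DNA replication, 6 rose and 7 fell in FI3OE, with Rrm1, a subunit of ribonucleotide reductase, up by 0.53, and 3 rose (Lig1, Mcm6 and Mcm7) and 6 fell in FI3KO.

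Some genes for mitosis were called in both experiments. In FI3OE 9 of 16 rose, where 20.2% of all genes did, and none fell, with Mki67 up by 0.42 and Cdk1 by 0.32, and the 16 genes summed to 73.9 to 85.1 CPM against 56.3 to 64.1 in WT. In FI3KO 5 of 11 tested fell (Cenpe, Top2a, Mki67, Aurkb and Cdk1), where 18.3% of all genes did, and none rose, and the sum was 9.93 to 11.1 CPM in FI3KO replicates 3 to 6 against 20.9 to 25.2 in WT, while in replicates 1 and 2 it was 14.0 to 14.5 against 13.1 to 14.9. The 10 cell cycle inhibitors listed summed to 957 to 1004 CPM in FI3OE against 622 to 638 in WT. In TRAP replicates 3 to 6 they summed to 558 to 692 CPM in FI3KO against 807 to 829 in WT. In replicates 1 and 2 it was 586 to 604 against 619 to 633 CPM. How far dividing cells contribute to the histone values was not tested.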

How the data were processed

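RNA-seq of 18 libraries was used as deposited. According to the study's methods and the labels, rRNA-depleted total RNA was made into unstranded libraries, and the authors quantified reads with Salmon (version 1.4.0) against GENCODE M24 transcripts (GRCm38) with corrections for sequence and GC bias. The deposited expected counts (estimated counts per transcript) are neither normalized nor whole, and the deposited TPM values are scaled by the authors' Salmon run for transcript length and depth.

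Of 118733 transcripts, 117850 matched GENCODE M21 by identifier, and the other 883, with 0.375% to 1.079% of the reads, were kept as genes of their own. Estimated counts were summed per gene and rounded. In R 4.3.3, edgeR 4.0.16 (filterByExpr, TMM, quasi-likelihood test, Benjamini-Hochberg over all genes tested) was fitted to FI3OE and WT, to FI3KO and WT, to the interaction of genotype with the set of TRAP replicates (1 and 2, 3 to 6), and to both WT groups. A gene was called at an adjusted p of at most 0.05. CPM were scaled by TMM within each fit. Genes sharing at least 80% of the 31-base words of the one with fewer words were linked, and linked genes were also summed as copies, a choice made after seeing the data, as was the alternative of summing overlapping genes with them.

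Named histone genes were, in each comparison, the 10 with the highest mean CPM and, among those called, the 6 that rose most and the 6 that fell most. In other lists up to 4 genes of highest mean CPM were named, and those that a count of 5 or fewer refers to. Others named here, such as copies, were chosen after their values were seen. The members, the lists and the sets of TRAP replicates were chosen with earlier results of these data known. Alternatives were DESeq2 1.42.0 (Wald test or size factors), other filters on low counts, robust dispersion, a transcript length offset, 1 fit of all 18 libraries, a replicate block, subsets of TRAP replicates and each library left out in turn. Figures were drawn with matplotlib 3.10.9 in Python 3.11.15.

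On simulated counts with 200 changed genes, 2-fold changes were recovered for 89.7% of genes in the FI3OE design, 95% in the FI3KO design, 52.1% for the interaction and 82.5% between WT groups, and 1.5-fold changes for 79.8%, 44.4%, 5.2% and 36.6% in the same order. The simulation gave every gene the same dispersion and held neither sets of TRAP replicates nor copies that share reads. Its changed genes were drawn from all genes tested, so the shares do not give the recovery of histone genes. Counting error and the spread of 3 to 6 libraries set the precision. Replicate libraries of every group differed by more than counting error, the closest pair being WT TRAP replicates 1 and 2, with a mean chi-square per gene of 2.54.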

Additional observations from a re-analysis of the deposited data

Results flagged for a closer look

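Among the values of single libraries, 5 of 56 sets of 6 TRAP libraries had a library far from the others, at a rate of false flags of about 1 in 20. All 5 were in FI3KO. Hist2h2aa1/Hist2h2aa2 were at 102 CPM in FI3KO replicate 1 and at 130 to 139 CPM in the others, and the H2A genes summed were at 112 CPM there against 141 to 149 CPM. Hist1h3h/Hist1h3i were at 0.755 CPM in FI3KO replicate 1 and at 0 to 0.166 CPM in the others. Hist1h2bj was at 2.27 CPM in FI3KO replicate 5 and at 1.53 to 1.69 CPM in the others, and Hist1h2ao/Hist1h2ap were at 0.125 CPM in FI3KO replicate 5 and at 0 in the others.

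The effect of FI3KO differed between replicates 3 to 6 and replicates 1 and 2 in the interaction test of edgeR for these genes, given as log2 differences with adjusted p. The sets were chosen from these same libraries, so the p-values are descriptive. In class H4 the difference was 1.17 for Hist1h4d (8.85e-05), 1.15 for Hist1h4h (0.00712), 0.94 for Hist1h4c (0.00696) and 1.44 for Hist2h4 (0.0273). For H2A it was 0.80 for Hist2h2aa1/Hist2h2aa2 (0.000881), or 0.39 (0.0456) with overlapping genes summed too, and 0.66 for Hist3h2a (0.0129). In class H2B the difference was 0.48 for Hist1h2be (0.0293) and -0.29 for Hist1h2bc (0.0495). For H3 it was 1.46 for Hist1h3e (0.0238) and -0.57 for Hist2h3b/Hist2h3c1/Hist2h3c2 (0.0422). Hist1h3h/Hist1h3i were called with the lower effect (0.0496), and their fold is not given because the libraries were at or near 0. The part of other cells or of library quality in these differences was not tested.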

How the results depend on the processing

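Of 1223 values of single named genes under the alternatives, 1067 kept their direction and their side of the threshold, 118 lost and 12 gained the call, and 26 changed sign, 22 of them between values that were both not called. With a log2 fold of 1 also required, 1 histone gene was called in FI3OE, 3 in FI3KO and 5 for the difference between sets. With all 18 libraries in 1 fit, 3 were called in FI3OE and 18 in FI3KO, against 9.09% and 35.6% of all genes. With at least 10 reads in every library, 23 differed between the WT groups, as fewer genes were tested. Replicates 3 to 6 alone gave 16 calls in FI3KO (17 with copies summed), and replicates 1 and 2 alone gave 1 (0 with copies summed, and 5 at an unadjusted p under 0.05 in edgeR). With single libraries left out, calls ranged from 8 to 13 in FI3OE, 7 to 12 in FI3KO, 3 to 12 for the difference between sets (3 without WT replicate 2) and 40 to 47 between the WT groups. In FI3OE the sign of Hist1h4n turned to 0.0048 with all 18 libraries in 1 fit, 0.0089 with no filter and 0.013 with a transcript length offset, and ranged from -0.096 to 0.085 with single libraries left out, while Hist1h4d ranged from -0.00065 to 0.12. In FI3KO, replicates 1 and 2 alone gave -0.080 for Hist1h1e, -0.29 for Hist1h2be and -0.085 for Hist1h3e, with or without copies summed. Hist1h2be gave -0.0046 with at least 10 reads in every library and -0.060 to 0.072 with single libraries left out. Hist2h2aa1 gave 0.47 in replicates 3 to 6 alone and -0.15 to 0.18 with single libraries left out. The difference between sets ranged from -0.032 to 0.84 for Hist1h2bq and from -0.029 to 0.83 for Hist1h2br, both negative only without FI3KO replicate 1, and Hist1h1c gave -0.054 between the WT groups with at least 10 reads in every library. Where no construction of the alternative is named, the cause was not tested. All other alternatives left the counts without a required fold within 1.5 times their value. With the fold required, and no single library left out, the alternatives gave at most 3 calls in FI3OE and 9 in FI3KO, 4 to 8 for the difference between sets and 17 to 39 between the WT groups.

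With the replicate number as a replicate block, 8 genes were called in FI3OE and 10 in FI3KO, where Hist1h2be gave -0.00033. Libraries of the same number correlated between -0.293 and 0.104, and not every library correlated best with its own number. These values cannot tell whether libraries of the same number shared an animal, a culture or a batch, which the labels do not name.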
